A study of Arabidopsis thaliana with 11 samples.

Results

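The 7 genes described here encode subunits of translation elongation factor 1B (eEF1B) and translation elongation factor 2 (eEF2) of Arabidopsis thaliana. They are AT1G30230 and AT2G18110 (eEF1B beta), AT5G19510 and AT5G12110 (eEF1B alpha), AT1G09640 and AT1G57720 (eEF1B gamma) and AT1G56070 (eEF2). They make up 7 of the 22121 genes and 38 of the 121244 introns in the tables of splice site ratios. The set was chosen by 1 measured value, the high splice site ratio of intron 6 of AT1G30230 in mRNA, which had been read as retention of that intron. The values of that intron in mRNA are therefore given as a description, and no test result is given for them.

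RNA came from 10-day-old seedlings of Col-0, the common laboratory accession, with no mutation or treatment in any group. Chromatin-bound RNA (CB-RNA) was isolated by washing nuclei with urea, and 4 kinds of chromatin library were made from it: CB-RNA with rRNA removed (2 libraries), RNAe with rRNA and polyadenylated RNA removed (2), RNAe + RNAf with rRNA removed only (2), and RNAf, the polyadenylated chromatin-bound RNA alone (2). Polyadenylated mRNA (3 libraries) served as the mature reference. CB-RNA and RNAe + RNAf carry the same treatment in the labels, and what set the 2 preparations apart is not given in the sources used here. For each intron the tables give the exonic and the intronic reads beside the 5ʹ and the 3ʹ splice site and their quotient, the 5ʹSS ratio and the 3ʹSS ratio, as 1 pooled set of values per group. No spread between libraries can be computed from pooled values, so the intervals below are 95% Wilson intervals that cover counting error only.

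During elongation eEF1A brings aminoacyl-tRNA to the ribosome with bound GTP, and the eEF1B complex exchanges the GDP left on eEF1A for GTP. In plants the alpha and beta subunits of eEF1B carry the exchange activity and the gamma subunit holds the complex together. eEF2 moves the ribosome along the mRNA by a codon. An intron that is still present in an RNA gives intronic reads at both of its ends, so a high ratio at both sites marks unspliced RNA. A high ratio at only 1 site is a different pattern.

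All 38 introns of the 7 genes were counted in every group. Exonic reads beside 5ʹ splice sites, summed over all genes, ranged from 5460195 in RNAe + RNAf to 116244073 in mRNA. The median exonic reads beside a splice site of the 7 genes ranged from 67.5 in RNAe + RNAf to 5995.5 in mRNA, and the lowest of any single site was 6, in RNAe. The leaf genes AT1G67090 (RBCS1A), AT2G39730 (RCA) and AT3G01500 (CA1) and the root gene AT3G09260 (PYK10) had reads in every group. The seed storage gene AT5G44120 (CRA1) was counted in mRNA alone, with 1896 exonic reads beside 5ʹ splice sites, and the flower gene AT4G18960 (AG) in none. Reads with more than 1 alignment had been excluded, which bears on stretches that paralogous members share.

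AT1G30230 is where the set began, so the sequence of its last intron is shown first. The tables place intron 6 on the plus strand at chr1:10640419-10640516 (98 bases, within the coding region). RefSeq (TAIR10.1) annotates 2 transcripts there. NM_001084158.1, with a protein of 260 amino acids, has the intron of the tables. NM_102762.5, with a protein of 231 amino acids, has an intron at chr1:10640415-10640513 whose donor lies 4 bases and whose acceptor lies 3 bases upstream. In the lines below the GT and AG of each intron are in capitals, and the first 2 lines show the same 126 bases (chr1:10640403-10640528) with each annotated intron in turn. The third shows the last intron of the paralogue AT2G18110 with its flanks (chr2:7873594-7873726, plus strand).
AT1G30230, intron 6 of the tables: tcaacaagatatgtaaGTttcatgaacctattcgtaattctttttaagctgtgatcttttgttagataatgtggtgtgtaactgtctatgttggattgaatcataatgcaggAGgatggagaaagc
AT1G30230, intron of the other RefSeq transcript: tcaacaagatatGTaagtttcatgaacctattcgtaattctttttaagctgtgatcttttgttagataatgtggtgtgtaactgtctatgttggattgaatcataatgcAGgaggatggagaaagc
AT2G18110, intron 5: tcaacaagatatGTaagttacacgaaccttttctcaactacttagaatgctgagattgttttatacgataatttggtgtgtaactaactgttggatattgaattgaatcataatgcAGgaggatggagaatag

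Around the donor the 2 genes were identical at 18 of 18 bases compared, and around the acceptor at 18 of 21. Each gene has a second GT 4 bases and a second AG 3 bases downstream of the pair that opens and closes the shorter-protein form. The tables list the downstream pair for AT1G30230 and the upstream pair for AT2G18110, whose single RefSeq transcript (NM_127367.3) encodes 231 amino acids.

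At the 3ʹ end of intron 6 of AT1G30230 nearly as many intronic as exonic reads were counted in every group. The 3ʹSS ratio was 0.809 in CB-RNA (511 intronic and 632 exonic reads), 0.815 in RNAe (260 and 319), 0.822 in RNAe + RNAf (374 and 455), 0.806 in RNAf (3792 and 4706) and 0.931 in mRNA (14800 and 15897). The intervals ran from 0.720 to 0.908, 0.692 to 0.960, 0.717 to 0.942, 0.772 to 0.841 and 0.910 to 0.952 in the same order. The intervals of the 4 chromatin groups overlapped one another, and mRNA had the highest ratio of the 5. The set was chosen by the mRNA value, so its place above the other groups is a description only.

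The 5ʹ end of the same intron did not have this pattern. The 5ʹSS ratio was 0.0539 in CB-RNA (28 intronic and 519 exonic reads), 0.0866 in RNAe (22 and 254), 0.0573 in RNAe + RNAf (22 and 384), 0.0162 in RNAf (63 and 3882) and 0.00157 in mRNA (24 and 15289). In mRNA the 3ʹSS ratio thus ranked above 99.2% of 96519 introns, while the 5ʹSS ratio ranked above 31.5% of introns. An intron kept whole in mRNA would carry reads at both ends, so the data go against calling intron 6 retained. The intron is high at its 3ʹ splice site only. The tables do not state whether a read that splices at the acceptor 3 bases upstream is counted as intronic beside the listed acceptor, and the part of that acceptor in the ratio was not tested.

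**Figure D1:**
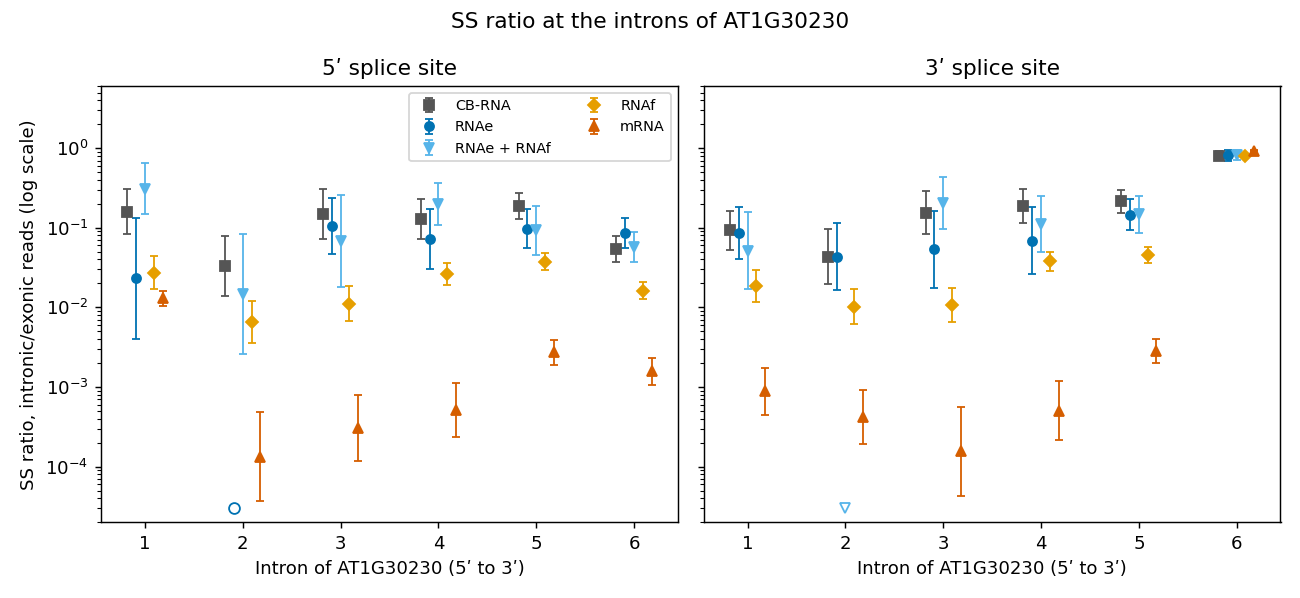
SS ratio (intronic over exonic reads, log axis) at the 5ʹ splice site (left) and the 3ʹ splice site (right) of the 6 introns of AT1G30230, 1 point per group, with 95% Wilson intervals for counting error. Open symbols at the bottom are ratios of 0. At intron 6 the 3ʹSS ratios of all 5 groups lie between 0.806 and 0.931, while the 5ʹSS ratios run from 0.0866 in RNAe to 0.00157 in mRNA.

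Between RNAe and RNAf, a contrast that the choice of genes did not use, the 2 ends of intron 6 differed in outcome. The 5ʹSS ratio was 5.34-fold higher in RNAe (adjusted p = 4.53e-08, two-sided Fisher's exact test with Benjamini-Hochberg adjustment over all introns tested at that site). The 3ʹSS ratio was 1.01 times that of RNAf (adjusted p = 0.943, Fisher's exact test), and the intervals of the 2 groups overlapped. The test compares pooled reads of 2 libraries per group and says nothing of the spread between seedling samples.

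The other 5 introns of AT1G30230 had low ratios. Without intron 6 the gene ratio, which is the intronic over the exonic reads summed over both sites and all introns, was 0.00157 in mRNA, 0.0237 in RNAf, 0.0778 in RNAe, 0.109 in RNAe + RNAf and 0.133 in CB-RNA. Only 0.866% of genes lay below that value in RNAe, 1.72% in RNAf and 2.19% in mRNA. The other genes kept all their introns, their highest included, so these ranks are not like for like. With intron 6 counted the gene ratio was 0.246 in RNAe, 0.187 in RNAf and 0.103 in mRNA, and in mRNA 88.4% of genes lay below it. A single splice site therefore moved the gene from near the bottom of the order in mRNA to the upper part.

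Within AT1G30230, intron 2 (chr1:10639369-10639511) was lowest in RNAe and RNAf. Its ratio with both sites summed was 0.0215 in RNAe (interval 0.00828 to 0.0558) and 0.00836 in RNAf (0.00565 to 0.0124). Intron 5 (chr1:10640049-10640138) was the highest of the first 5 introns in RNAf, at 0.0377 at the 5ʹSS and 0.0454 at the 3ʹSS, against 0.0027 and 0.0028 in mRNA. Introns 3 and 4 had 3ʹSS ratios of 0.0106 and 0.0379 in RNAf, and each had at most 6 intronic reads per site in mRNA beside 9986 or more exonic reads. Intron 1 (chr1:10638973-10639259), which lies before the coding region, was uneven in mRNA. It had 84 intronic reads for 6452 exonic reads at the 5ʹSS and 8 for 9011 at the 3ʹSS.

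The paralogue AT2G18110 showed no such contrast between the ends of its last intron. Intron 5 (chr2:7873606-7873711) had 5ʹSS and 3ʹSS ratios of 0.444 and 0.464 in CB-RNA, 0.733 and 0.545 in RNAe, 0.263 and 0.5 in RNAe + RNAf, 0.0852 and 0.126 in RNAf, and 0.0068 and 0.0051 in mRNA. Both ends were highest in RNAe, lower in RNAf and lowest in mRNA, where 9 intronic reads stood beside 1763 exonic reads at the 3ʹSS. Both fell from RNAe to RNAf, by 8.60-fold at the 5ʹSS and 4.34-fold at the 3ʹSS. Levels are given as the exonic reads per splice site window of a gene in every 1000000 exonic reads of the group. AT2G18110 had the lower level of the 2 beta genes in mRNA, 7.55 against 52.1 for AT1G30230.

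The remaining introns of AT2G18110 were also spliced to different extents. With both sites summed, the ratio in RNAe ran from 0.172 at intron 1 to 0.900 at intron 3, the latter on few reads (interval 0.481 to 1.68). In RNAf it ran from 0.0147 at intron 4 (0.00905 to 0.0240) to 0.105 at intron 5 (0.0885 to 0.125), and these intervals do not overlap. At intron 2 the RNAe ratio was 0.352 at the 5ʹSS and 0.350 at the 3ʹSS, against 0.0602 and 0.0905 in RNAf.

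RefSeq was searched for other introns with a second annotated acceptor just upstream of the listed one, using introns with at least 50 exonic reads at both sites and leaving out intron 6. In mRNA the 126 introns with an acceptor 3 bases upstream had a median 3ʹSS ratio of 0.212 and a median 5ʹSS ratio of 0.0145, and 20.6% had a 3ʹSS ratio above 0.5. The 93032 introns with none annotated within 30 bases had medians of 0.0072 and 0.0062, and 1.03% exceeded 0.5 at the 3ʹSS. These introns share libraries and annotation, and their values are a description. The 3ʹSS ratio of intron 6, 0.931, is higher than that of most of the 126.

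**Figure D2:**
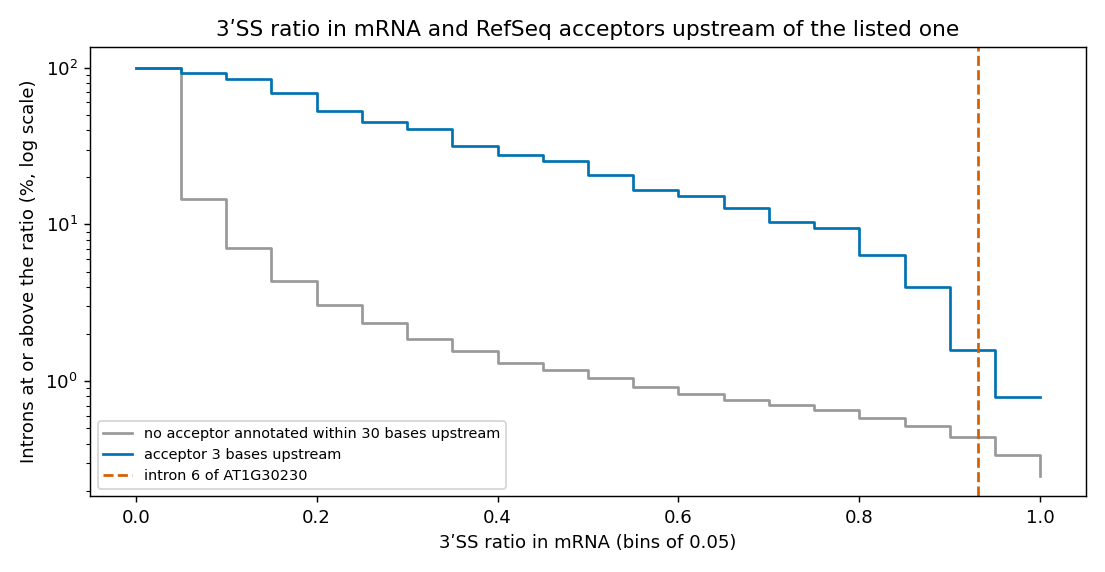
Share of introns (log axis, %) whose 3ʹSS ratio in mRNA is at or above the value on the horizontal axis, in bins of 0.05, for introns with a RefSeq acceptor 3 bases upstream of the listed one (blue, 126 introns) and with none within 30 bases (grey, 93032 introns). The dashed line marks intron 6 of AT1G30230 at 0.931. 20.6% of the first set and 1.03% of the second lie above 0.5.

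Few introns shared the pattern of intron 6. Of 44301 introns with at least 500 exonic reads at both sites in mRNA, 243 had a 3ʹSS ratio above 0.5, and 62 of those had a 5ʹSS ratio below 0.05. A further measure of likeness was the Euclidean distance of log2(ratio + 0.01) over the 5 groups and both sites, among 24664 introns. The nearest was intron 1 of AT5G57110 (distance 1.3), with 5ʹSS and 3ʹSS ratios of 0.0400 and 0.866 in RNAf. It was followed by intron 1 of AT2G28810 (1.44), intron 39 of AT5G51200 (1.64), intron 4 of AT1G30590 (1.69) and intron 11 of AT5G25560 (1.72). RefSeq lists an acceptor upstream of the listed one at 4 of these 5 introns, 16, 3, 9 and 6 bases away, and none at AT2G28810. The listed acceptor of intron 11 of AT5G25560 is itself not in RefSeq. Among introns with at least 50 exonic reads at both sites in mRNA, 126 had an acceptor 3 bases upstream. A further 176 had one 4 to 10 bases and 355 one 11 to 30 bases upstream, beside 93032 with none. The median 3ʹSS ratios of the 176 and the 355 in mRNA were 0.409 and 0.1285. Of these sets 44.9% and 21.1% were above 0.5, beside 20.6% of the 126, so high 3ʹSS ratios were not particular to a spacing of 3 bases.

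The 2 eEF1B alpha genes have 5 introns each, and the first falls after 86 coding bases in both. Their sequences are shown because the 2 introns were spliced to very different extents in RNAf. Intron 1 of AT5G12110 lies at chr5:3914569-3914667 (plus strand) and that of AT5G19510 at chr5:6582962-6583051 (minus strand), with the terminal GT and AG in capitals.
AT5G12110, intron 1: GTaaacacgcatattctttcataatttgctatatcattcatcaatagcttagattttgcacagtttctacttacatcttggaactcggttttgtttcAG
AT5G19510, intron 1: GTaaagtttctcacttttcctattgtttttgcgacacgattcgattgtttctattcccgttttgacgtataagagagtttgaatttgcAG

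With both sites summed, intron 6 of AT1G30230 stood at 0.449 in RNAf (interval 0.432 to 0.466), with only 1 of its sites high. Intron 1 of AT5G12110 had the highest ratio of the 38 introns there, 0.472, and its interval of 0.405 to 0.550 overlaps. Its 5ʹSS and 3ʹSS ratios were 0.25 and 0.857 in CB-RNA, 0.5 and 0.364 in RNAe, 0.889 and 0.643 in RNAe + RNAf, 0.502 and 0.444 in RNAf, and 0.0507 and 0.0436 in mRNA. Only 6 to 20 exonic reads per site lay behind the first 3 groups, whereas RNAf had 245 and 268. Both ends were high together in RNAf, and they ranked above 93.5% and 91.6% of introns there. RNAf exceeded mRNA by 9.90-fold at the 5ʹSS (adjusted p = 1.43e-41) and 10.2-fold at the 3ʹSS (adjusted p = 3.35e-43, Fisher's exact test). At the 3ʹSS, RNAe did not differ detectably from RNAf at this depth (adjusted p = 1, Fisher's exact test), and the 5ʹSS had too few reads in RNAe to be tested.

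Intron 1 of AT5G19510 was nearly fully spliced in RNAf. With both sites summed its ratio was 0.0126 (interval 0.00929 to 0.0170), against 0.472 (0.405 to 0.550) for intron 1 of AT5G12110. In mRNA the ratios were 0.000611 and 0.0468. The other introns of AT5G12110 ranged in RNAf from 0.0605 at intron 5 upward and lay below its intron 1. In RNAe its highest was intron 3, at 0.760 (interval 0.5 to 1.16), and its lowest intron 4, at 0.348 (0.159 to 0.762), and these intervals overlap. In mRNA its lowest was intron 3, with 3 intronic beside 2792 exonic reads. In AT5G19510 intron 2 was the lowest in RNAe, RNAf and mRNA (0.0750, 0.00915 and 0.000253), and intron 5 the highest in RNAe and RNAf (0.285 and 0.0491). In mRNA its highest was intron 3, at 0.00134.

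The 2 alpha genes also differed in level. In mRNA the level of AT5G19510 was 61.6 and that of AT5G12110 was 6.65. The levels were 7.64 and 0.901 in RNAe and 16.2 and 3.57 in RNAf. These are relative levels in whole seedlings, given without a test, in which fewer cells that use a gene and less RNA per cell cannot be told apart. In CB-RNA introns 2 and 5 of AT5G12110 had no intronic read at either site, beside 13 to 24 exonic reads, and at the shallowest of these sites a floor of 3 reads gives a ratio of 0.231 and the upper Wilson limit is 0.295.

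The gamma genes AT1G09640 and AT1G57720 have 7 introns each, the first before the coding region. Introns 2 to 6 fall after the same numbers of coding bases in both genes (9, 159, 220, 273 and 375). In AT1G09640 the extremes in RNAf were intron 2 (chr1:3120171-3120387) and intron 6 (chr1:3121061-3121170), with ratios of 0.00117 (interval 0.000207 to 0.00664) and 0.100 (0.0848 to 0.119) over both sites. In RNAe intron 7 was the highest, at 0.358 (0.243 to 0.528), and intron 2 the lowest, at 0.113. In mRNA intron 6 was the highest, at 0.00195, and intron 3 the lowest, with 0 intronic beside 8752 exonic reads over both sites. Intron 6 fell from RNAe to RNAf by no more than 2.69-fold at either site, less than the median of all introns.

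Leaving intron 6 of AT1G30230 aside, intron 2 of AT1G09640 was the only 1 of 37 introns at which RNAf was not called higher than mRNA. Its 3ʹSS ratio was 0.0005 in mRNA, 0 in RNAf (0 intronic beside 437 exonic reads, where a floor of 3 reads gives 0.00686 and the Wilson limit is 0.00879), 0.0995 in RNAe + RNAf, 0.175 in RNAe and 0.190 in CB-RNA. Its 5ʹSS ratio was 0.0005, 0.0024, 0.0269, 0.0444 and 0.0418 in the same order. At the 3ʹSS RNAe was higher than RNAf (adjusted p = 5.80e-19, Fisher's exact test). The RNAe ratio there was 25.5 times the value that a floor of 3 reads over the pooled group gives for RNAf. The lower Wilson limit of RNAe was 14.9 times the upper limit of RNAf. By the same exact test RNAf and mRNA were not distinguishable (adjusted p = 1 at the 3ʹSS and 0.334 at the 5ʹSS).

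In AT1G57720 intron 4 (chr1:21378446-21378538) was the highest in RNAe, at 0.537 over both sites (interval 0.429 to 0.674). Intron 7 was at 0.432 there (0.317 to 0.588), and these intervals overlap. In CB-RNA intron 7 was above intron 4, at 0.490 against 0.457. Intron 4 had 5ʹSS and 3ʹSS ratios of 0.5 and 0.411 in CB-RNA, 0.504 and 0.588 in RNAe, 0.433 and 0.567 in RNAe + RNAf, 0.0346 and 0.0716 in RNAf, and 0.0005 and 0.0009 in mRNA. It fell by 14.6-fold at the 5ʹSS and 8.22-fold at the 3ʹSS from RNAe to RNAf. Intron 6 was the lowest in RNAe, at 0.0826 over both sites. In RNAf intron 7 was the highest, at 0.0564, and intron 2 the lowest, at 0.0170. In mRNA the lowest was intron 3, with 3 intronic beside 13081 exonic reads, and the highest was intron 1 (chr1:21377721-21377823), at 0.00933, where RefSeq places the start of a second transcript (NM_001036125.2, from position 21377735) inside the intron.

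**Figure D3:**
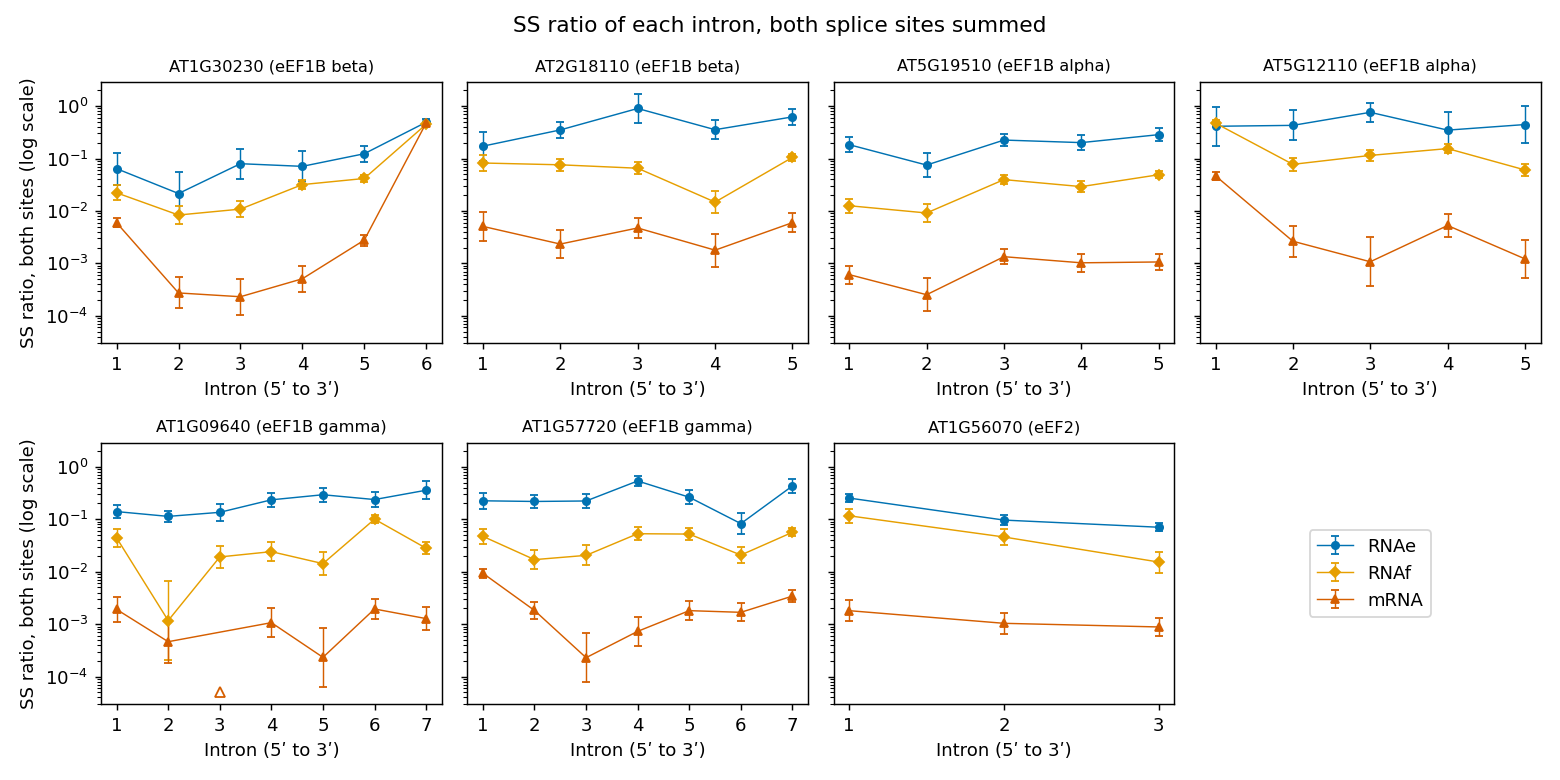
SS ratio with both splice sites summed (log axis) of each intron of the 7 genes, in order from the 5ʹ to the 3ʹ end, in RNAe, RNAf and mRNA, with 95% Wilson intervals for counting error. Open symbols at the bottom are ratios of 0. The 3 groups keep the order RNAe, RNAf, mRNA except at intron 6 of AT1G30230 and intron 1 of AT5G12110, where RNAf is at 0.449 and 0.472.

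AT1G56070, the eEF2 gene, is a long gene with 3 introns near its 5ʹ end. The first (chr1:20971112-20971665, minus strand, 554 bases) lies before the coding region. Over both sites the ratio was highest at intron 1 and lowest at intron 3 in RNAe (0.254 and 0.0705), RNAf (0.116 and 0.0153) and mRNA (0.00181 and 0.000884). In CB-RNA the first and the last intron were at 0.412 and 0.122, and in RNAe + RNAf at 0.198 and 0.0552. The intervals of the first and the last intron did not overlap in the 4 chromatin groups, and in mRNA they overlapped, at 0.00113 to 0.00289 and 0.000603 to 0.00129.

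The eEF2 gene had a low level in RNAf. Its level was 39.4 in mRNA, 4.02 in RNAf, 40.2 in RNAe + RNAf and 39.0 in RNAe. Relative to RNAe, RNAf was at 0.103 and mRNA at 1.01. In the other genes RNAf stood between 0.698 (AT1G09640) and 3.97 (AT5G12110) of RNAe, and mRNA between 2.11 (AT1G09640) and 8.07 (AT5G19510). Of 14138 genes with at least 50 exonic reads in RNAe and in RNAf, 0.75% had a lower level in RNAf relative to RNAe than eEF2. The eEF2 windows lie near the 5ʹ end of the gene, and reads of RNAf lean to the 3ʹ end of genes. At the first intron alone eEF2 stood at 0.109, which 5.81% of 9695 genes lay below, beside a median of 0.546. These values are a description. In CB-RNA the level of eEF2 was 13.2, below RNAe + RNAf, although both carry the same treatment in the labels.

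Reads along the gene set AT1G09640 apart in RNAe. Exonic reads at its last intron were 0.261 of those at its first in RNAe and 3.56 in RNAf. Over all genes with at least 3 introns the medians were 0.818 and 2.73. AT1G30230 had more exonic reads at its last than at its first intron in every group, from 2.02 times in mRNA to 9.64 times in RNAe + RNAf. In RNAf it stood at 5.44 times, above AT1G09640. AT5G12110 and eEF2 also had more at the last intron in every group, by at least 1.06 and 2.81 times. For AT5G12110 this rests on few reads, 18 against 17 in RNAe and 45 against 34 in CB-RNA. With both sites summed, the last intron had the higher ratio in 6 of the 7 genes in RNAe, the exception being eEF2, beside 61.5% of all genes. In RNAf this held for 4 of 7, beside 53.5% of all genes. Both counts include AT1G30230, whose last intron is intron 6, the intron by which the set was chosen. In RNAe the intervals of the first and the last intron overlapped in AT5G19510, AT5G12110 and AT1G57720.

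As a group the 7 genes had low gene ratios beside all counted genes. Their median was 0.00251 in mRNA, 0.0417 in RNAf, 0.246 in RNAe, 0.180 in RNAe + RNAf and 0.237 in CB-RNA. Over all counted genes the medians were 0.0215, 0.138, 0.416, 0.362 and 0.383. The members below the median of all genes were 6, 5, 6, 7 and 7 of 7 in the same order. Without intron 6 of AT1G30230, the value by which the genes were chosen, the median was 0.00157 in mRNA, 0.199 in RNAe and 0.201 in CB-RNA. The exceptions with that intron counted were AT5G12110 in RNAe, AT1G30230 and AT5G12110 in RNAf, and AT1G30230 in mRNA. The lowest in mRNA was AT5G19510, at 0.000826, which 0.996% of genes lay below. By intron and without intron 6 of AT1G30230, the 5ʹSS medians of the members were 0.213 in CB-RNA, 0.1905 in RNAe and 0.152 in RNAe + RNAf. They were 0.0346 in RNAf and 0.0011 in mRNA. All introns with at least 500 exonic reads had 0.2, 0.194, 0.179, 0.0375 and 0.0052 in that order. At the 3ʹSS the members had 0.229, 0.259, 0.186, 0.0405 and 0.0016, against 0.235, 0.245, 0.230, 0.0505 and 0.0061. Beside those introns the gap was large in mRNA only.

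**Figure D4:**
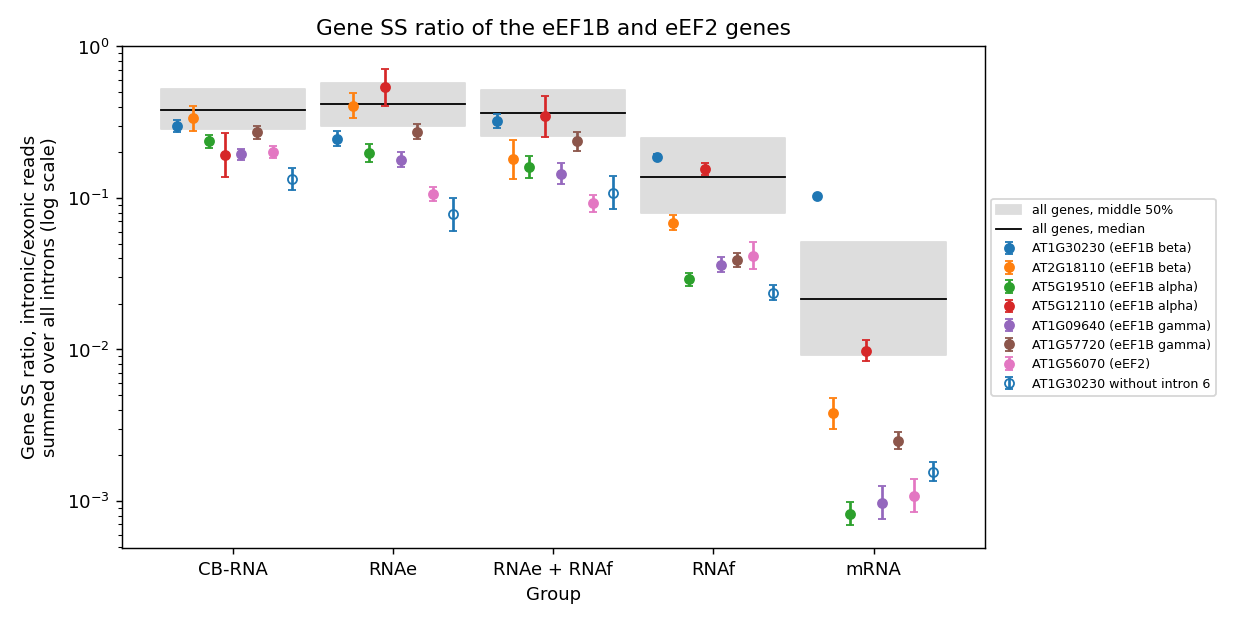
Gene SS ratio (intronic over exonic reads summed over both sites and all introns, log axis) of the 7 genes in the 5 groups, with 95% Wilson intervals for counting error, beside the median (line) and middle 50% (grey) of all counted genes. Open circles show AT1G30230 without intron 6. In mRNA the ratio of AT1G30230 is 0.103 with and 0.00157 without that intron.

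Intron by intron, RNAe was higher than RNAf at most sites of the 7 genes. At the 5ʹSS 30 of 36 introns tested were called higher and none lower, beside 68.1% higher and 0.848% lower among all introns tested. At the 3ʹSS 31 of 37 were higher and none lower, beside 69.5% and 0.427%. With a minimum of 500 exonic reads in each group 1 intron remained at each site and was higher, beside 86.1% and 88.8%. Without intron 6 of AT1G30230 the median fold at sites with intronic reads in both groups was 6.39 at the 5ʹSS and 5.45 at the 3ʹSS, against 5.06 and 4.66 over all introns. The sites that were not called lay in AT1G30230 (5), AT2G18110 (2), AT5G12110 (4) and AT1G57720 (1). Every site of AT5G19510, AT1G09640 and AT1G56070 was called.

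The contrasts with mRNA were counted over 37 introns, without intron 6 of AT1G30230. RNAf was higher than mRNA at 36 of 37 introns at the 5ʹSS, beside 58% of all introns tested, and at 36 of 37 at the 3ʹSS, beside 63.7%. None was lower, beside 0.47% and 0.409% of all introns. The 7 genes are deeply covered, and among all introns with 500 or more exonic reads in each group 78.4% and 83% were called higher. At that depth 21 of 21 of the 37 introns were called at each site. The median fold of RNAf over mRNA at sites with intronic reads in both groups was 22.7 at the 5ʹSS and 24.2 at the 3ʹSS, against 5.14 and 5.49 over all introns. Very low ratios in mRNA can enter this fold only at deeply covered sites. The median exonic reads in mRNA were 5995.5 at sites of the 7 genes, and 461 at the 5ʹSS and 468 at the 3ʹSS over all introns. A fold among introns of like depth was not computed.

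CB-RNA, which shares the mRNA group with that contrast, was higher than mRNA at 34 of 37 introns at the 5ʹSS and 35 of 37 at the 3ʹSS, beside 91.2% and 92.9% of all introns. None was lower, beside 0.185% and 0.127%. With 500 or more exonic reads 1 intron remained at each site and was higher, beside 97.4% and 98.2%. The sites not called were both sites of introns 2 and 5 of AT5G12110 and the 5ʹSS of intron 1 of AT2G18110, each with at most 24 exonic reads in CB-RNA. No site was called between RNAe and RNAe + RNAf by Fisher's exact test, of 36 introns tested at the 5ʹSS and 37 at the 3ʹSS. Of these, 4 and 2 had an unadjusted p under 0.05, beside 12.1% and 11.6% of all introns. After adjustment 0.853% and 0.711% of all introns were called higher in RNAe and 0.337% and 0.275% lower. With 500 or more exonic reads 1 intron remained at each site, and the 3ʹSS of intron 3 of eEF2 was then called higher in RNAe, beside 10.8% and 14.1% of all such introns. Over all introns the adjusted p of that site was 0.130 by Fisher's exact test (0.0841 in RNAe and 0.0473 in RNAe + RNAf).

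Other genes of elongation and termination were taken as a list of 11: 4 of eEF1A, 1 of an eEF2-like protein, 3 of eIF5A, which eases peptide bond formation, and 3 of eRF1, which reads stop codons. Of their 24 introns, RNAe was higher than RNAf at 14 of 22 tested at the 5ʹSS and 14 of 23 at the 3ʹSS, beside the 68.1% and 69.5% of all introns given above. RNAf was higher than mRNA at 21 and 22 of 24, beside 58% and 63.7% of all introns, or 78.4% and 83% of those with 500 or more exonic reads. It was lower at 1 at each site, beside 0.47% and 0.409%. The lower sites were in the eRF1 gene AT1G12920 (5ʹSS) and the eEF2-like gene AT3G12915 (3ʹSS). AT3G12915 had a gene ratio of 0.0960 in mRNA and 0.0285 in RNAf, an order opposite to that of eEF2.

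In eEF1A the most deeply covered gene, AT5G60390, had gene ratios of 0.454 in RNAe, 0.0439 in RNAf and 0.00128 in mRNA. The eEF1A genes are near-identical, and their counts are uncertain where reads align to several of them. The eIF5A genes differed in RNAf, from 0.0713 in AT1G26630 to 0.362 in AT1G69410, whose RNAe ratio was 0.583. In mRNA these 2 genes were at 0.00173 and 0.0215.

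All 38 introns of the 7 genes start with GT and end with AG, as do 98.8% of the 121170 introns of the tables that could be read in the RefSeq genome. Their lengths ran from 78 to 554 bases with a median of 107, beside a median of 99 over all introns, and their median GC content was 33.3%. RefSeq annotates an overlapping alternative intron at 3 of the 38: intron 6 of AT1G30230, intron 7 of AT1G09640 and intron 1 of AT1G56070. The last 2 had the same acceptor or one further downstream in the alternative form, and their 3ʹSS ratios in mRNA were 0.0021 and 0.0018.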

How the data were processed

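Per the labels and the methods of the study, the authors used Trimmomatic 0.39 for trimming, HISAT2 2.2.0 for alignment to TAIR10, SAMtools 1.3.1 and StringTie, dropped reads with more than 1 alignment and used the longest transcript of each expressed gene. The deposited tables hold, per group, ratios and the exonic and intronic read counts behind them (other units: a ratio with text where none was given, and paired counts). Window width and how libraries were pooled are not given in the sources used here. The FPKM values were not used.

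The members and lists were chosen with earlier results of these data known. Fisher's exact test (two-sided) was run on every intron that had 10 or more exonic reads in each of the groups compared, and p-values were adjusted by Benjamini-Hochberg (threshold 0.05). Wilson 95% intervals of the intronic share were turned into ratios. Tested on simulated data for RNAf against mRNA at the 5ʹSS, 42.5% of 200 introns changed 3-fold among 95204 were called, and 0.00105% of unchanged ones. Named introns are all those of both beta genes, the highest and lowest in RNAe, RNAf and mRNA elsewhere, and the 5 nearest to intron 6. Other introns named were chosen after their values were seen. The alternatives tried were other read minimums, Bonferroni, a 2-fold minimum, means of ratios and leaving out intron 6. Of the introns, 74 have a start after their end. Tools were scipy 1.17.1, pandas 2.3.3, numpy 2.4.6 and matplotlib 3.10.9 under Python 3.11.15, with the RefSeq TAIR10.1 genome.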

Additional observations from a re-analysis of the deposited data

How the results depend on the processing

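Of 73 sites tested, the 61 called higher in RNAe than in RNAf became 32 with Bonferroni adjustment and 2 (of 2 tested) with at least 500 exonic reads. The 72 of 74 sites higher in RNAf than in mRNA became 42 (of 42 tested) at that depth, and the 69 higher in CB-RNA than in mRNA became 2 (of 2). Fewer sites were tested there. Between RNAe and RNAe + RNAf the count rose from 0 to 1 (of 2 tested), the 3ʹSS of intron 3 of eEF2. A minimum of 50 or 1 exonic reads and a 2-fold minimum kept each count within 1.5 times the values above. Without intron 6 of AT1G30230 the median gene ratio of the 7 genes was 0.201 in CB-RNA, 0.199 in RNAe and 0.00157 in mRNA. With means of intron ratios it was 0.218 in RNAe and 0.0602 in RNAf. The 3ʹSS ratio of intron 6 in mRNA ranked above 99.8% of introns with at least 500 exonic reads, against 99.2% of all. No paired analysis was possible because the tables hold 1 pooled set of values per group, and leaving out a library and the replicate block were not run for the same reason.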
